A study of Mus musculus with 18 samples.

Results

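The genes described here encode the nuclear subunits of complex I, the NADH dehydrogenase of the mitochondrial respiratory chain. They were taken by symbol, as every row of the deposited table named Ndufa, Ndufab, Ndufb, Ndufc, Ndufs or Ndufv followed by a number, which gave 38 of the 55270 genes listed; the assembly factors named Ndufaf were left out. No measured value entered that choice. Poly-A RNA was sequenced from the substantia nigra of mice aged 3 months, in 18 libraries from 6 mice per group. Intact mice carry the genotype label WT, AAV-GFP mice had received an adeno-associated virus (AAV, a gene delivery vector) for green fluorescent protein, and AAV-SIRT3 mice one for SIRT3, each about a month before the tissue was taken. AAV-GFP is the control for receiving a vector, and intact tissue is the control for both vectors. The serotype, promoter, dose and injection site of the vectors, and so the cells that carried them, are not given in the sources used here.

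Complex I takes electrons from NADH, passes them along iron-sulfur clusters to ubiquinone and pumps protons across the inner mitochondrial membrane. Its core subunits do the catalysis: those of the N module hold the NADH site, those of the Q module hold the ubiquinone site, and the membrane core is encoded in mitochondrial DNA. Accessory subunits surround this core and stabilise it. SIRT3 is an NAD-dependent deacetylase of the mitochondrial matrix, and dopaminergic neurons of the substantia nigra are known for their sensitivity to complex I inhibitors.

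Between 47182529 and 64728587 reads were assigned to genes in each library. Counts for mouse Sirt3, in deposited normalised reads, were 1733 to 1920 in intact, 1684 to 1936 in AAV-GFP and 1801 to 2041 in AAV-SIRT3 libraries. The difference between AAV-SIRT3 and AAV-GFP was 0.13 ± 0.04 on the log2 scale (SE; limma, adjusted p = 0.183), so the Sirt3 row did not mark the AAV-SIRT3 libraries; whether a transgene's reads would fall on that row is not given, and the groups are named by their labels. The dopaminergic markers Th and Slc6a3 were measured in every library, at 3673 to 6637 normalised reads for Th and 6087 to 12867 for Slc6a3 over all libraries. In whole tissue, fewer cells of a type and less RNA per cell cannot be told apart.

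All 38 genes passed the filter on low values, and the lowest value of any of them was 1487 normalised reads, for Ndufb6. Compared per kilobase of transcript, Ndufa4 had the highest level in intact tissue, at 14723 ± 848 normalised reads per kilobase (SD, n = 6). Ndufa4 carries a complex I name and was later placed in complex IV. Of the genes reported here, Ndufb10, of the distal membrane arm, followed at 8436 ± 399. Ndufa6, at 7127 ± 460, and Ndufb8, at 6876 ± 344, came after it and lay within their spread of each other. The lowest levels per kilobase were those of Ndufc1 (1602 ± 57), of Ndufab1 (799 ± 20), the mitochondrial acyl carrier protein, and of Ndufb2 (411 ± 14). These levels depend on the transcript length used. Annotated coding transcripts span 1416 to 3479 bases for Ndufab1, 455 to 4371 for Ndufb2 and 315 to 1249 for Ndufc1. For Ndufb8 they span 680 to 2142 bases, for Ndufa6 300 to 590 and for Ndufa4 409 to 610. The order therefore holds only for the lengths used here. Ndufa4 stayed first in AAV-SIRT3 tissue, at 18660 ± 1793, and Ndufb2 stayed last, at 410 ± 12.

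Complex I genes were higher in AAV-SIRT3 than in intact substantia nigra. Of the 38, 35 rose and 0 fell (limma on log2 values, Benjamini-Hochberg adjusted p under 0.05 over all 19443 genes tested), where 21.7% of all tested genes were called in either direction, 11.3% higher and 10.3% lower. Of the 38 fold changes 37 were above 0, against 49.1% of all tested genes. The median log2 fold change of the 38 was 0.27, against -0.0049 for all tested genes. For 26 of the 38, every AAV-SIRT3 library lay above every intact library, which held for 5.01% of all tested genes. The largest rise was 31.2%, and 3 genes, Ndufs1, Ndufb2 and Ndufab1, did not pass the test.

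**Figure D1:**
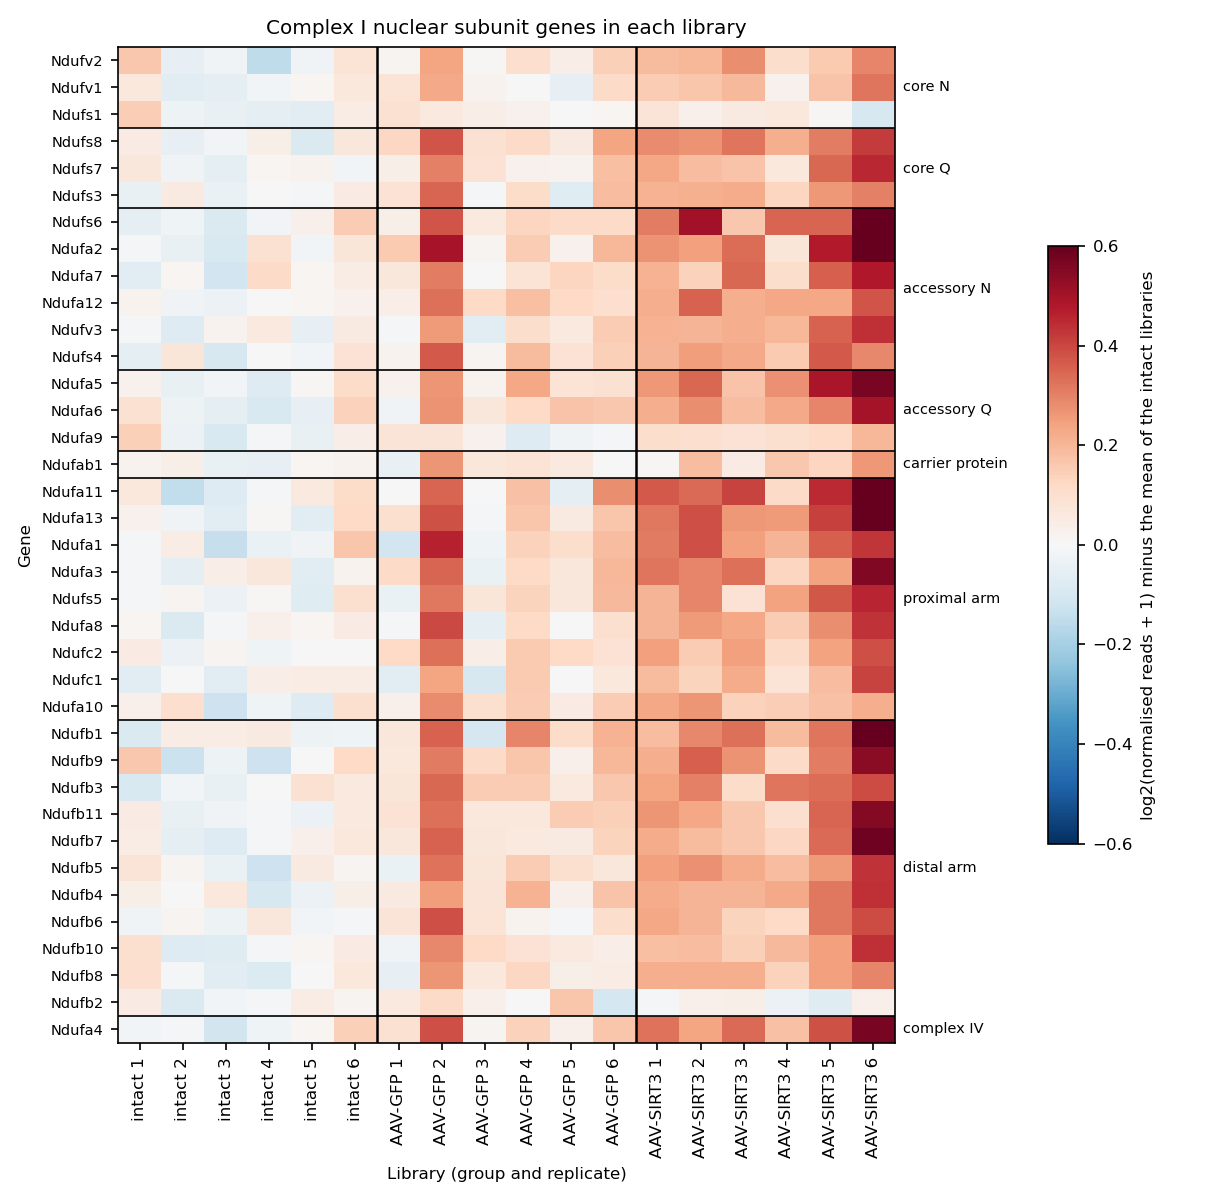
Each cell shows log2(normalised reads + 1) of 1 of 37 complex I genes in a library minus that gene's mean over the 6 intact libraries, with genes ordered by role and colours clipped at 0.6. The AAV-SIRT3 columns are red for most genes, AAV-GFP 2 is the reddest AAV-GFP column, and the rows of Ndufs1 and Ndufb2 stay pale.

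Of the 3 core subunits of the N module, 2 rose. Ndufv1 carries the flavin that accepts electrons from NADH. Its normalised reads ran from 7584 through a median of 7918 to 8293 in intact, from 7676 through 8223 to 9286 in AAV-GFP and from 8067 through 8912 to 9925 in AAV-SIRT3 libraries. The AAV-SIRT3 libraries overlapped the intact ones at their lower end, and Ndufv1 rose by 0.17 ± 0.05 (log2, SE; limma, adjusted p = 0.014). Its partner Ndufv2, which holds an iron-sulfur cluster beside the flavin, rose by 0.20 ± 0.05 (limma, adjusted p = 0.00696). Ndufs1, the largest core subunit and holder of several iron-sulfur clusters, had 8950, 9104 and 10352 normalised reads as lowest, median and highest intact value, against 8743, 9617 and 9862 in AAV-SIRT3. The lowest AAV-SIRT3 value of Ndufs1 lay under every intact value, and its difference of 0.02 ± 0.04 did not pass the test (limma, adjusted p = 0.717).

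Core subunits of the Q module rose as well. Ndufs8, which carries iron-sulfur clusters on the way to ubiquinone, was among them. Its intact libraries ran from 3302 through a median of 3530 to 3680 normalised reads, its AAV-GFP libraries from 3640 through 3810 to 4560 and its AAV-SIRT3 libraries from 4078 through 4302 to 4688. No AAV-SIRT3 library overlapped an intact one, and the rise was 0.30 ± 0.05, or 23.3% (limma, adjusted p = 0.000692). Ndufs7, which holds the last cluster before ubiquinone, rose by 0.24 ± 0.06, and Ndufs3 by 0.22 ± 0.05.

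Among accessory subunits of the matrix arm, all 6 of the N module and all 3 of the Q module rose. Ndufs6, a zinc-binding subunit that joins late in assembly, had 2176, 2279 and 2567 normalised reads as lowest, median and highest intact value. Its AAV-GFP values were 2372, 2502 and 2999, and its AAV-SIRT3 values 2590, 2942 and 3519. The lowest AAV-SIRT3 library therefore lay just above the highest intact library, and Ndufs6 rose by 0.38 ± 0.06, or 30.0% (limma, adjusted p = 0.000927). Ndufa5 of the Q module rose by 0.35 ± 0.06 and Ndufa12, an N-module subunit, by 0.27 ± 0.04. Ndufa2 rose by 0.35 ± 0.09 with the widest spread of the AAV-SIRT3 group, a coefficient of variation of 16%. Ndufa9, a nucleotide-binding subunit where the matrix and membrane arms meet, rose least, by 0.12 ± 0.04 (limma, adjusted p = 0.036), and this call was lost in 16 of 34 alternatives.

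Subunits of the membrane arm rose as well. All 9 accessory subunits of the proximal arm rose, and 10 of 11 of the distal arm. Ndufa11, which sits at the contact of complex I with complex III, had 1836, 2069 and 2195 normalised reads as lowest, median and highest intact value, 1953, 2165 and 2587 in AAV-GFP, and 2199, 2658 and 3245 in AAV-SIRT3. The groups intact and AAV-SIRT3 touched but did not overlap, and the rise of 0.39 ± 0.08, or 31.2%, was the largest of the 38 (limma, adjusted p = 0.00207). Ndufa13, also known as GRIM-19, rose by 0.37 ± 0.06, from 5940 ± 290 to 7724 ± 765 normalised reads (SD, n = 6). Ndufa1 and Ndufb11, both encoded on the X chromosome, rose by 0.32 ± 0.07 and 0.28 ± 0.06. Ndufb2, a small distal-arm subunit, stood apart with 1689, 1798 and 1856 normalised reads in intact and 1706, 1811 and 1837 in AAV-SIRT3 libraries, a difference of -0.0019 ± 0.04 (limma, adjusted p = 0.981).

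Outside the arms, Ndufa4 rose by 0.34 ± 0.06 (limma, adjusted p = 0.00126), with intact values of 8323 to 9905 and AAV-SIRT3 values of 10130 to 13298 normalised reads. Ndufab1 measured 2683, 2810 and 2848 as lowest, median and highest intact value and 2794, 3076 and 3328 in AAV-SIRT3. Of the 6 AAV-SIRT3 libraries, 1 fell within the intact range, and its difference of 0.13 ± 0.05 missed the threshold (limma, adjusted p = 0.0532); 11 of 34 alternatives called it higher. Medians by role were 0.17 for the N-module core, 0.23 for the Q-module core, 0.27 for N-module accessory, 0.28 for Q-module accessory, 0.28 for proximal and 0.27 for distal subunits. Differences between roles were not tested.

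**Figure D2:**
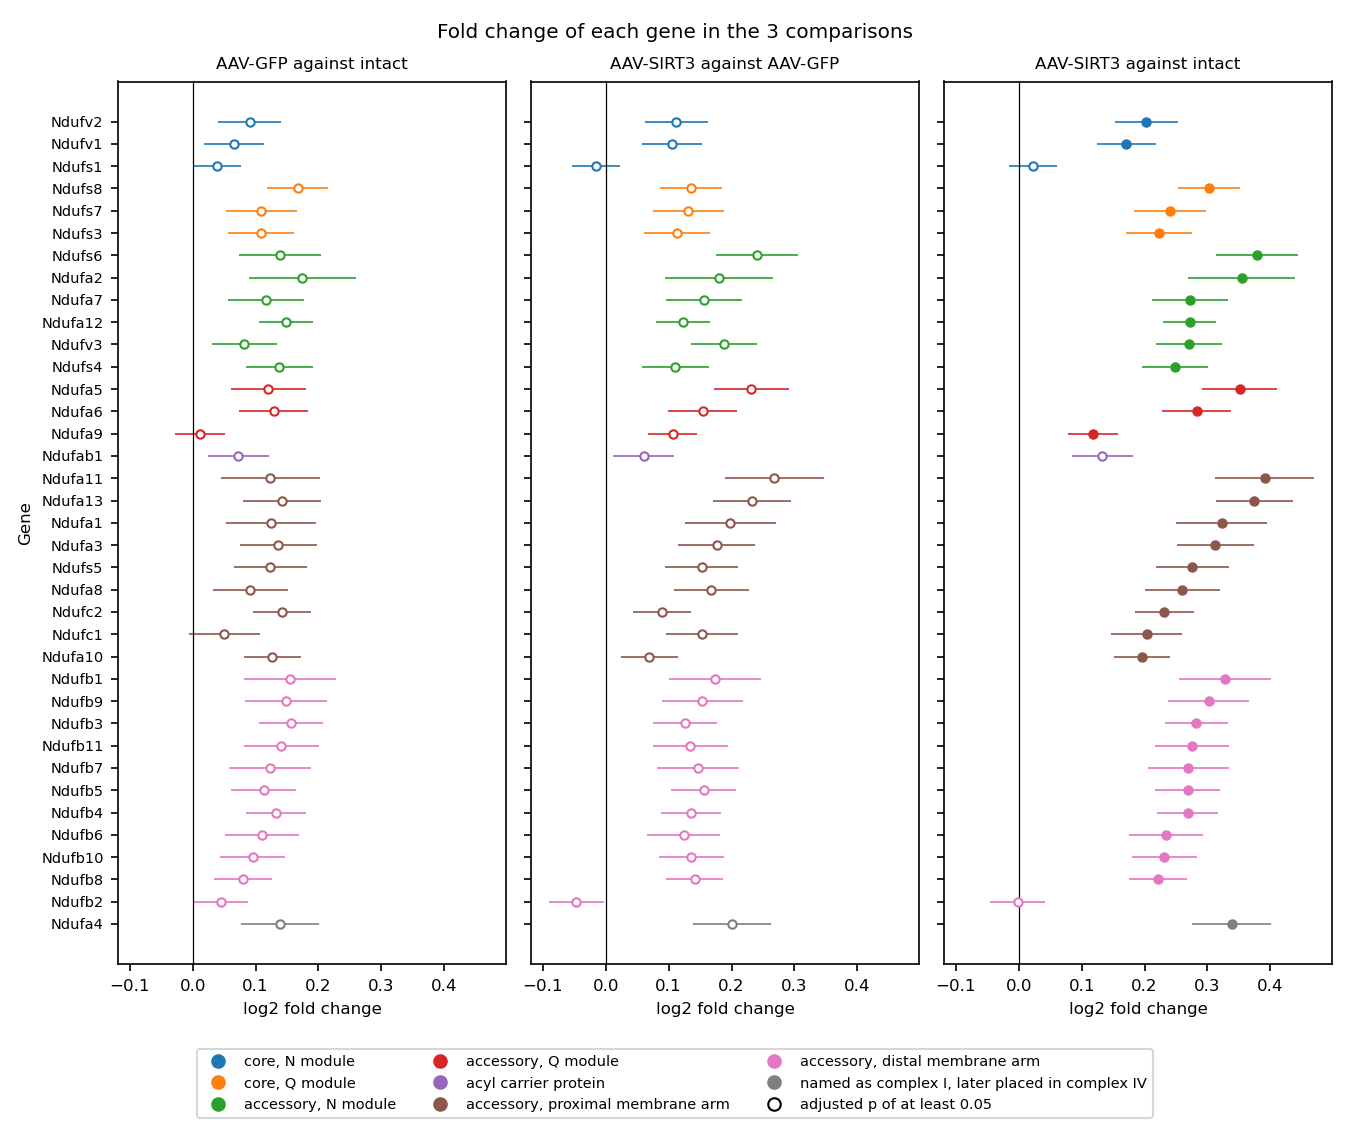
Points are log2 fold changes of 37 complex I genes in the 3 comparisons and bars are standard errors from limma, coloured by role, filled where the adjusted p is under 0.05. All filled points lie in the panel of AAV-SIRT3 against intact, and Ndufs1, Ndufab1 and Ndufb2 are the open points there.

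Promoter sequences were read for the genes at both ends of this range, to show what lies upstream of the largest and the smallest changes. RefSeq promoters (GRCm38.p6) were found for 34 of the 38 genes, 36 promoters in all. Each line gives the 250 bases before the annotated start, 5′ to 3′ on the gene's strand, for the pair of genes with the largest and the pair with the smallest log2 fold change among genes with 1 promoter entry. Capitals mark matches, on either strand, to the NRF1 motif (GCGCA and GCGC with 1 base of any kind between them) or the NFY motif CCAAT; other letters are lower case.
Ndufa11, chr17:56717512-56717761, plus strand: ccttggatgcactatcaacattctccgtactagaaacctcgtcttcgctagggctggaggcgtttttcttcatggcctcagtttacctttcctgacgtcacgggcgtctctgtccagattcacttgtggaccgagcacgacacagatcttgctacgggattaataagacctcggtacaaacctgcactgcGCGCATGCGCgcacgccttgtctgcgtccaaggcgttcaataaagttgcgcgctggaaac
Ndufs6, chr13:73328483-73328732, minus strand: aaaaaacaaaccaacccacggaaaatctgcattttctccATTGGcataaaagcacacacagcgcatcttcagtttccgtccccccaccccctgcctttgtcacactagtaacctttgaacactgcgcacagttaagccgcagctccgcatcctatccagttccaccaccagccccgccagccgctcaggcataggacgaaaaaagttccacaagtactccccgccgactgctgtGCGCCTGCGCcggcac
Ndufa9, chr6:126849145-126849394, minus strand: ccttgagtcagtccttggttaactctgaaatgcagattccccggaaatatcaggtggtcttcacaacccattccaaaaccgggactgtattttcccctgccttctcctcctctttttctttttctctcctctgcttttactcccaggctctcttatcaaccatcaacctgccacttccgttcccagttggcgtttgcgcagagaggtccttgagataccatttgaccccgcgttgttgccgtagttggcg
Ndufb2, chr6:39592315-39592564, plus strand: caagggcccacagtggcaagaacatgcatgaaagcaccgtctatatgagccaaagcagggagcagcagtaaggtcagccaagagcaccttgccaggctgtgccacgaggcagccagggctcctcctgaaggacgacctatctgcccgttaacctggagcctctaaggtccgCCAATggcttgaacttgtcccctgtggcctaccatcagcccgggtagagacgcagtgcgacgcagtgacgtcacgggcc
Ndufa11 and Ndufs6 each hold an NRF1 match close to the start, and Ndufa9 and Ndufb2 hold none. The genes shown were picked by their fold change, and a link of the motif with the fold change was not tested.

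Over windows of 300 bases, from 250 before to 50 after the start, 8 of the 36 complex I promoters (22.2%) held the NRF1 motif, against 4.60% of 32851 RefSeq promoters. NRF1 is a factor known for driving nuclear genes of respiration, and the 7 genes with its motif were Ndufa11, Ndufa5, Ndufa6, Ndufa8, Ndufb4, Ndufs5 and Ndufs6. Their log2 fold changes in AAV-SIRT3 against intact were, in that order, 0.39, 0.35, 0.28, 0.26, 0.27, 0.28 and 0.38. Among genes with a promoter entry but no NRF1 match, the fold changes ran from -0.0019 for Ndufb2 to 0.37 for Ndufa13. The YY1 motif AAGATGGCG was found in 5 promoters (13.9%, against 1.40%), those of Ndufa9, Ndufc1, Ndufs4, Ndufs6 and Ndufs7; those of Ndufa9 and Ndufs6 lie after the start, outside the printed bases. The ETS motif CCGGAAGT was in 1 (2.78%, against 3.89%), and the ESRRA motif TCAAGGTCA in 0 (against 0.423%). NFY was in 10 (27.8%, against 37.4%), and the SP1 motif GGGCGG in 16 (44.4%, against 35.7%). Median GC was 59.2% in the complex I promoters and 52.7% in all, and these shares were not corrected for it. NRF1 matches can overlap one another, and a match is a description of letters.

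AAV-GFP tissue was compared with intact tissue to see what a vector without SIRT3 went with. All 38 fold changes were above 0, as were 50.2% of all tested genes, with a median of 0.12 against 0.00074. In this comparison 0 of 38 passed the threshold (limma), where 1.84% of tested genes did; edgeR called 0 (1.86% of tested genes) and DESeq2 called 2, Ndufa12 and Ndufs8 (5.14%). At an unadjusted p under 0.05, 17 of 38 were higher, against 9.59% of tested genes. Without AAV-GFP 2 the median was 0.078 and 0 of 38 passed. For Ndufa12 and Ndufb11 every AAV-GFP library lay above every intact one (0.874% of tested genes). Ndufa12 had 4687, 4820 and 4887 normalised reads as lowest, median and highest intact value and 4941, 5216 and 6040 in AAV-GFP, a difference of 0.15 ± 0.04 (limma, adjusted p = 0.0693). Beside this, 3 of 15 dopaminergic markers were lower in AAV-GFP than in intact tissue, with summed normalised reads of 45353 to 57632 against 52030 to 69492, and 7 of 12 microglial markers were higher. Of 9 thalamic markers 2 were called higher, with 9 at an unadjusted p under 0.05 and a median log2 fold change of 0.53, and 4 of 6 anterior pituitary markers were lower, with a median of -2.80. The part of these markers in the complex I values was not tested.

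AAV-SIRT3 tissue was set against AAV-GFP tissue to compare the SIRT3 cargo with a vector that lacked it. Of the 38 fold changes 36 were above 0, as were 48.6% of all tested genes, and the median was 0.14 against -0.0041. With limma 0 of 38 passed the threshold, where 0.113% of all tested genes did. At an unadjusted p under 0.05, 32 were higher, against 8.13% of tested genes. DESeq2 called 3 (Ndufa13, Ndufa5 and Ndufs6; 1.56% of tested genes) and edgeR called 0 (0.123%). The largest differences were 0.27 ± 0.08 for Ndufa11 (limma, adjusted p = 0.137), 0.24 ± 0.06 for Ndufs6 (0.121) and 0.23 ± 0.06 for Ndufa13 (0.108). Ndufa9 alone had no overlap between these groups (0.37% of tested genes), with AAV-GFP values of 5089 to 5677 and AAV-SIRT3 values of 5711 to 6180 normalised reads. Its difference was 0.11 ± 0.04 (limma, adjusted p = 0.216). The comparisons with intact tissue and with AAV-GFP share the AAV-SIRT3 libraries, so their values are not independent. Between the same groups, 14 of 15 dopaminergic markers had a log2 fold change above 0, with a median of 0.24, 0 called and 8 at an unadjusted p under 0.05. All 9 GABAergic markers were above 0 as well, with a median of 0.22, 0 called and 3 at an unadjusted p under 0.05. Of 10 endothelial markers 1 was above 0, with a median of -0.35, 0 called and 7 at an unadjusted p under 0.05, and 1 of 12 microglial markers was called lower. The part of these markers in the complex I differences was not tested.

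A single AAV-GFP library decided the count in that comparison. AAV-GFP 2 was the highest of its group for 35 of the 38 genes, and without it 18 of 38 were higher in AAV-SIRT3 (limma; 4.43% of all tested genes called). Those 18 were Ndufa1, Ndufa11, Ndufa12, Ndufa13, Ndufa3, Ndufa4, Ndufa5, Ndufa8, Ndufb10, Ndufb3, Ndufb5, Ndufb6, Ndufb8, Ndufc1, Ndufs3, Ndufs6, Ndufs8 and Ndufv3. The median without AAV-GFP 2 was 0.18, with 0.31 ± 0.08 for Ndufa11 (adjusted p = 0.0298) and 0.28 ± 0.06 for Ndufa13 (0.0146). AAV-SIRT3 6 was the highest of its own group for 34 of 38 genes. With both libraries left out, 10 of 38 passed (1.84% of all tested genes), and without AAV-SIRT3 6 alone 0 did (0.113%).

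Libraries were set side by side by the median deviation of the 38 genes from the intact mean, on the log2 scale. Intact libraries lay between -0.045 and 0.055. AAV-GFP 2 lay at 0.32, and the other AAV-GFP libraries between 0.040 and 0.14. AAV-SIRT3 libraries ran from 0.14 in AAV-SIRT3 4 through 0.31 in AAV-SIRT3 5 to 0.43 in AAV-SIRT3 6. Every AAV-SIRT3 library was above every AAV-GFP library except AAV-GFP 2, though the groups nearly met. AAV-SIRT3 4 lay at 0.1447 and AAV-GFP 6 at 0.1425. Complex I genes took 0.289% to 0.308% of assigned reads in intact, 0.303% to 0.370% in AAV-GFP and 0.324% to 0.390% in AAV-SIRT3 libraries.

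Within each vector group the libraries with high complex I levels were also high in genes for cytosolic ribosomal proteins. The ribosomal protein score, a library's mean log2 deviation over 81 such genes from their mean in all 18 libraries, was -0.16 to -0.087 in intact libraries, 0.22 in AAV-GFP 2 and -0.078 to -0.041 in the other AAV-GFP libraries. It was 0.029 to 0.40 in AAV-SIRT3 libraries, lowest in AAV-SIRT3 4 and highest in AAV-SIRT3 6, as for complex I. Across the 6 intact libraries the score and the complex I deviation showed little relation (Pearson r = 0.12, Spearman -0.086). Of the 81, 72 rose in AAV-SIRT3 against intact, with a median of 0.28. With the score as a covariate, chosen after seeing the data, 0 of 38 complex I genes passed in AAV-SIRT3 against intact, 22 of all 19443 genes (0.113%) did, and the median of the 38 was 0.078. The score differed between the groups, so what belongs to the group and what to the score cannot be told apart by that model.

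**Figure D3:**
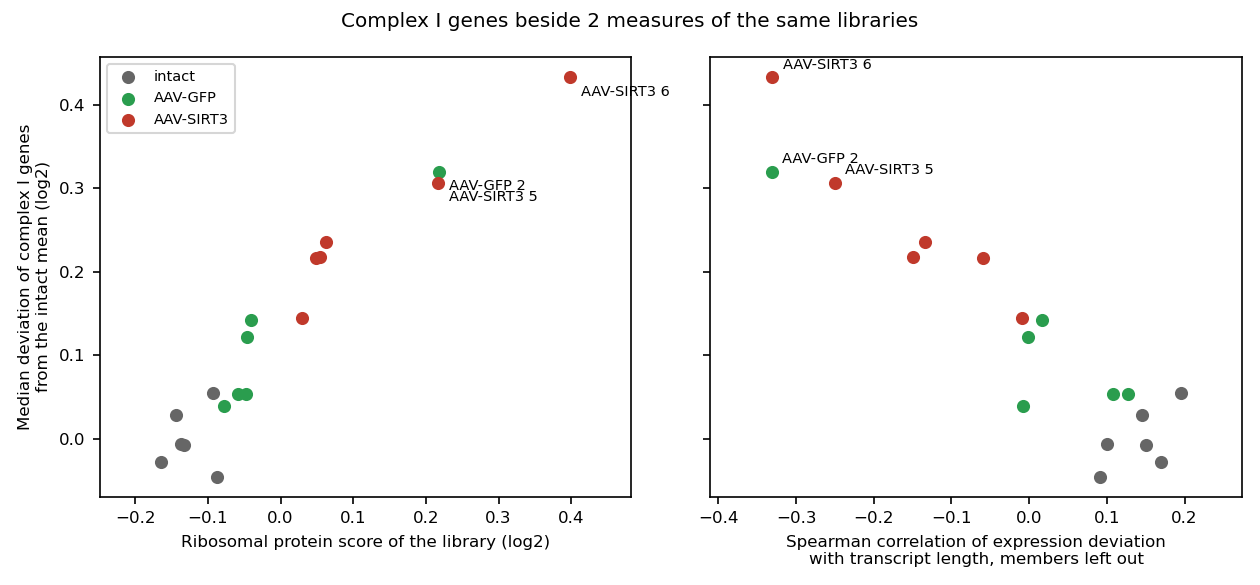
Each point is a library. The median log2 deviation of the 38 complex I genes is plotted against the ribosomal protein score (left) and against the Spearman correlation of all other genes' deviations with transcript length (right). AAV-SIRT3 6 and AAV-GFP 2 sit at the upper end in both panels, at 0.43 and 0.32.

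Short transcripts were also high in AAV-GFP 2 and AAV-SIRT3 6, and the AAV-SIRT3 libraries differed from the intact ones in this as a group. Leaving out complex I, the Spearman correlation across genes between a gene's deviation and its transcript length was 0.091 to 0.19 in intact libraries. In AAV-SIRT3 libraries it ran from -0.33 in AAV-SIRT3 6 to -0.0095 in AAV-SIRT3 4, under every intact value. It was -0.33 in AAV-GFP 2 and -0.0083 to 0.13 in the other AAV-GFP libraries. Across the 6 intact libraries this measure rose with the complex I deviation (Pearson r = 0.65, Spearman 0.49). It fell with that deviation in AAV-GFP (-0.92 and -0.31) and in AAV-SIRT3 libraries (-0.95 and -0.94). Complex I transcripts are short, with a median of 908 bases against 2719 for tested genes, and 21 of the 37 with a length were under 1000 bases against 11.2% of tested genes. Among the 37, the correlation of log2 fold change with length was -0.70 in AAV-SIRT3 against intact, -0.46 in AAV-GFP against intact and -0.68 in AAV-SIRT3 against AAV-GFP; genes are not independent replicates. With the shortest coding transcript of each gene in place of the one used, these were -0.48, -0.17 and -0.56. Ndufs1 (2661 bases), Ndufab1 (3479) and Ndufb2 (4371), which did not pass, have the longest transcripts by the first measure, while the shortest coding transcript of Ndufb2 has 455 bases. Within length ranges complex I genes were above the others: under 750 bases the median was 0.28 for 15 of them and 0.063 for 1262 other genes. From 750 to 1000 bases it was 0.27 for 6 and 0.12 for 838, and from 1000 to 1500 it was 0.27 for 7 and 0.10 for 1994. From 1500 to 2500 bases it was 0.20 for 6 and 0.056 for 4387. With the trend of length and GC removed from each library, 32 of 37 rose in AAV-SIRT3 against intact, where 10.6% of tested genes were called higher, and the median was 0.20.

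**Figure D4:**
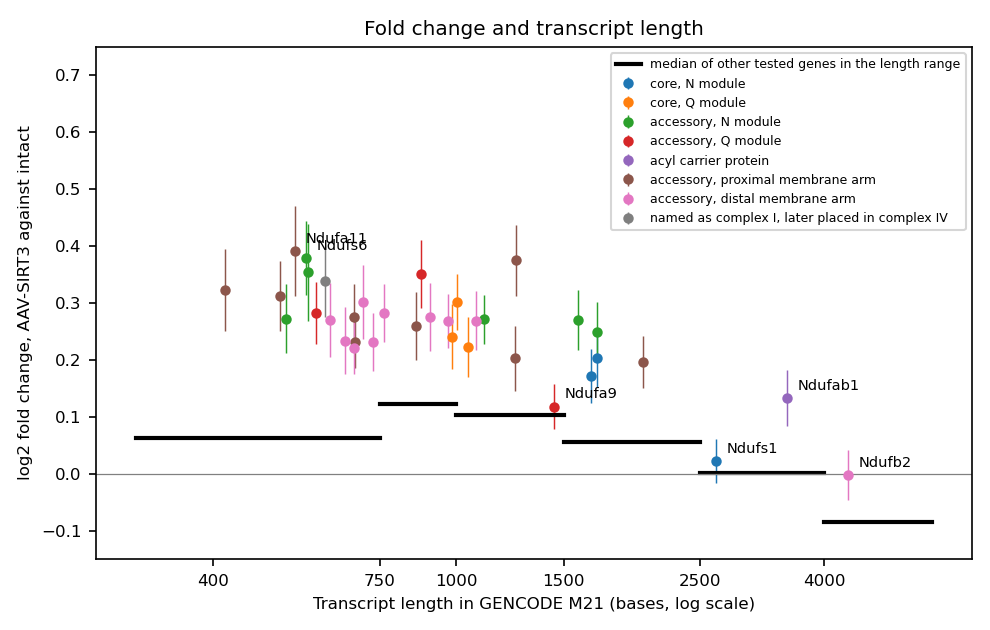
Points are complex I genes, placed by GENCODE M21 transcript length (log axis) and log2 fold change in AAV-SIRT3 against intact, with standard errors, and black bars are medians of other tested genes in 6 length ranges. The points lie above the bars of their length ranges, with Ndufa9 and Ndufs1 close to theirs, and Ndufs1 and Ndufb2 are at the lower right.

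Markers of other cells were read beside the rise against intact tissue. Of 9 thalamic neuron markers 7 were higher in AAV-SIRT3, with summed normalised reads of 48901 to 97290 in intact, 81670 to 94162 in AAV-GFP and 76500 to 102889 in AAV-SIRT3 libraries. With a thalamic score as covariate, 24 of 38 complex I genes passed (9.87% of tested genes), at a median of 0.28. Of 12 microglial markers 7 were higher, with sums of 21989 to 24199 in intact, 24190 to 31346 in AAV-GFP and 24835 to 29745 in AAV-SIRT3. Of 15 dopaminergic markers 0 changed (limma; 0 at an unadjusted p under 0.05), and their sums were 52030 to 69492 in intact and 52024 to 61619 in AAV-SIRT3. Of 10 markers of neurons in general 2 were higher and 1 lower, with sums of 401420 to 465302 and 409798 to 454673. Of 6 anterior pituitary markers 4 were lower, with 3 at 0 in some library and sums of 741 to 5429 in intact, 251 to 702 in AAV-GFP and 239 to 806 in AAV-SIRT3. Of 10 endothelial markers 1 was higher and 4 lower, and 2 of 9 choroid plexus markers were lower. No gene of the other lists named here was at 0 in any library, and the part of the microglial, pituitary, endothelial and choroid plexus markers in the complex I result was not tested.

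The other respiratory complexes rose with complex I against intact tissue. All 10 nuclear genes listed for complex IV rose, with a median log2 fold change of 0.31, 8 of 9 for complex III (0.33), 14 of 16 for complex V (0.30) and 3 of 4 for complex II (0.15). Of all tested genes 11.3% were called higher in this comparison. Cyc1, the cytochrome c1 of complex III, rose by 0.43 ± 0.12 (limma, adjusted p = 0.0128). Against AAV-GFP 0 genes of these 4 lists passed with limma, where 0.113% of all tested genes did. At an unadjusted p under 0.05 were 3 of 4 for complex II, 6 of 9 for III, 8 of 10 for IV and 11 of 16 for V. Of all tested genes 15.2% had such a p in either direction. Uqcrb of complex III was the 1 gene of these lists called in AAV-GFP against intact, at 0.18 ± 0.05 (limma, adjusted p = 0.0387). In that comparison 1.84% of all tested genes were called.

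**Figure D5:**
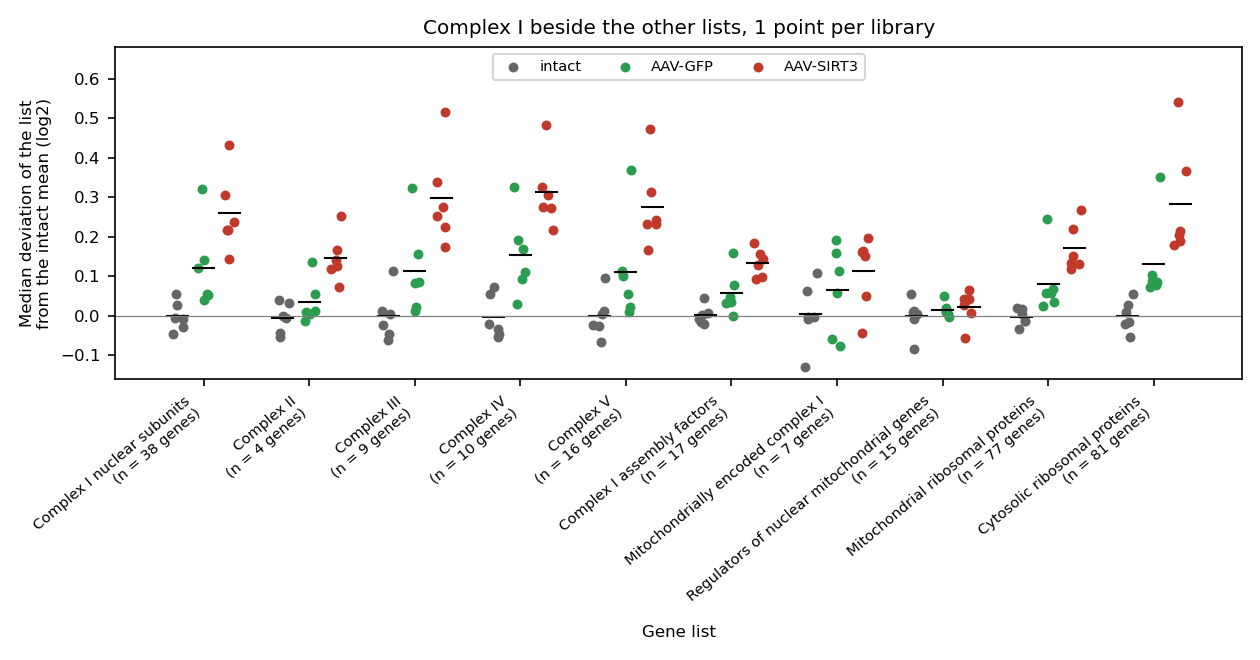
Each point is a library's median log2 deviation from the intact mean over the genes of a list, with short bars at group means, and the number of genes is under each name. AAV-SIRT3 libraries lie above intact ones for the nuclear subunits of complexes I to V, and the regulators stay near 0 in all groups.

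Complex I is put together by assembly factors that are not part of the finished enzyme. Of 17 assembly factors 6 rose in AAV-SIRT3 against intact and 0 fell, with a median of 0.14, and the difference from the subunits was not tested. Of all tested genes 11.3% were called higher there. Ndufaf3, which with Ndufaf4 builds the Q module, rose by 0.27 ± 0.06 (limma, adjusted p = 0.00434). Ndufaf5, which modifies Ndufs7, rose by 0.24 ± 0.06, and Ecsit, a factor for the membrane arm, by 0.23 ± 0.07. Of the 7 subunits encoded in mitochondrial DNA, mt-Nd4 rose by 0.15 ± 0.05 (limma, adjusted p = 0.0429) and mt-Nd6 by 0.16 ± 0.05 (0.0382), a count of 2 of 7 where 21.7% of all tested genes were called. The other 5 did not pass, 3 with a log2 fold change above 0 and 2 below: mt-Nd5 at -0.07 ± 0.08 and mt-Nd4l at -0.59 ± 0.59. Normalised reads of mt-Nd4l ranged from 201 to 1952 in intact and from 78.1 to 1455 in AAV-SIRT3 libraries.

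Of 15 regulators of nuclear mitochondrial genes, 1 rose and 3 fell in AAV-SIRT3 against intact, where 11.3% of all tested genes were called higher and 10.3% lower. The difference from these shares was not tested. Esrra, an orphan nuclear receptor that binds respiratory gene promoters, rose by 0.23 ± 0.05 (limma, adjusted p = 0.00434). Ppargc1b, a coactivator of mitochondrial biogenesis, fell by 0.56 on the log2 scale (SE 0.10; limma, adjusted p = 0.00132) and also fell in AAV-GFP against intact, by 0.44 (adjusted p = 0.0335). Gabpb2, a partner of the ETS factor Gabpa, had 1452 to 1671 normalised reads in intact, 1322 to 1595 in AAV-GFP and 1134 to 1265 in AAV-SIRT3 libraries. Its AAV-SIRT3 values lay under all others, and it fell against AAV-GFP by 0.28 on the log2 scale (SE 0.05; limma, adjusted p = 0.0168), the 1 gene of the 7 lists of respiratory genes, assembly factors and regulators called there. Nrf1, whose motif was searched above, differed by 0.09 ± 0.06 from intact (limma, adjusted p = 0.298).

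Some complex I rows share sequence or position with other genes. Of the 37 complex I genes matched in the GENCODE M21 annotation, 19 overlap another annotated gene and 14 overlap a protein-coding one, such as Ndufs1 with Eef1b2 on the opposite strand and Ndufs6 with Mrpl36. The kit marks strand, but the strand setting of the counting is not given, so reads from such partners cannot be told apart with certainty. Eef1b2 rose by 0.22 ± 0.05 in AAV-SIRT3 against intact (limma, adjusted p = 0.00383), while Ndufs1 did not pass.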

How the data were processed

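The authors deposited a table of HTSeq reads per gene divided by DESeq2 size factors, per the name of the table, a normalised signal. Per the submitters' processing notes HISAT2 2.1.0, DESeq2 1.34.0 and mm10 were used; annotation, strand setting and filters are not given in the sources used here. Multiplying by each library's size factor gave whole reads for 100% of values (within 1e-06). All 18 columns matched samples by title. Per the labels, libraries were stranded poly-A RNA, read in pairs of 100 bases.

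The 19443 genes that reached 10 normalised reads in 6 or more of the 18 libraries were tested. limma 3.58.1 (R 4.3.3) was fitted to log2(value + 1) over all libraries in 1 model, with trend and 15 residual degrees of freedom; a fold change is on that scale. P-values were adjusted over all tested genes by Benjamini-Hochberg, at 0.05. edgeR 4.0.16 and DESeq2 1.42.0 were run on the recovered reads. Lengths came from GENCODE M21, on the mm10 build, which matched 37 of the 38 genes (not Ndufb1). Replicates of a group differed by more than sampling noise (chi-square per degree of freedom 7.75 to 33.5).

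The genes, lists and tests were chosen with earlier results of these data known. By the naming rule any complex I gene could be named, the core subunits, Ndufa4, Ndufab1 and the 5 largest and 5 smallest fold changes were given values, and up to 4 called genes per list were named; mt-Nd4l, mt-Nd5, Nrf1, Eef1b2, Mrpl36, Ndufa4l2 and the pseudogenes were named after their values were seen. Of the 38, 1 gene entered all counts and medians, and its own values are not reported here. The fit was tested on simulated data. Mitochondrial ribosomal proteins (46 of 77 higher against intact, 0 lower), GABAergic (2 of 9 higher), astrocyte (1 of 10 higher) and oligodendrocyte markers (3 of 10 higher) were also read.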

Additional observations from a re-analysis of the deposited data

Results flagged for a closer look

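In 14 of 117 groups of 6 values a single library stood far from the rest of its group by Dixon's test, where chance gives about 1 in 20, or 5.85. All 14 were the highest value of AAV-GFP 2 or of AAV-SIRT3 6, and no intact group met the criterion. AAV-GFP 2 stood apart for Ndufa2 at 2864 normalised reads (next value 2336), Ndufa4 at 11715 (10054), Ndufa8 at 5085 (4204) and Ndufb11 at 4891 (4321). It also did so for Ndufb3 at 3911 (3443), Ndufb6 at 1984 (1636), Ndufb7 at 3791 (3256) and Ndufs6 at 2999 (2530), and for the median log2 deviation of the 38 genes at 0.32 (0.142). AAV-SIRT3 6 stood apart for Ndufa6 at 5941 (5136), Ndufa9 at 6180 (5837), Ndufb1 at 3911 (3116), Ndufb10 at 8357 (7317) and Ndufb5 at 7118 (6374). The genes share their libraries, so these are not independent events.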

How the results depend on the processing

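Each comparison was run under 34 alternatives, 3 of them chosen after seeing the data (a ribosomal protein score and a score of general neuronal markers as covariates, and both AAV-GFP 2 and AAV-SIRT3 6 left out). For AAV-SIRT3 against intact the count of complex I genes stayed between 24 and 36 except with the ribosomal covariate, where it was 0. The share of all tested genes called was 0.113% with that covariate and 8.23% to 27.4% in the other alternatives. The medians with that covariate were 0.078 in this comparison, 0.040 for AAV-SIRT3 against AAV-GFP and 0.030 for AAV-GFP against intact. Of the 35 genes called, 23 were called in every other alternative in which they were tested (Ndufb1, which has no length, was not in the 2 fits with the length and GC trend removed). Leaving out 1 library gave 33 to 36 genes and medians of 0.23 to 0.28 for AAV-SIRT3 against intact (16.9% to 23.8% of tested genes called). Between the vectors it gave 0 to 18 genes and medians of 0.11 to 0.18 (0.0257% to 4.43%). For AAV-GFP against intact it gave 0 to 1 gene (Ndufa12, without AAV-GFP 1) and medians of 0.078 to 0.14 (0.663% to 3.53%). The median of AAV-GFP against intact was 0.078 without AAV-GFP 2, over 1.5 times below the full value. For AAV-SIRT3 against AAV-GFP 10 were called with both libraries left out (1.84% of tested genes) and 3 by DESeq2 (1.56%), which called 2 for AAV-GFP against intact (5.14%). The cause of these changes was not tested.

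With the replicate number as a block 36 genes were called for AAV-SIRT3 against intact (20.2% of tested genes). In either other comparison 0 were called (0.0669% between the vectors, 1.91% for AAV-GFP against intact). With the trend of length and GC also removed 31 of 37 were called (17.1%), and 0 in the other comparisons (0.149% and 1.77%). Same-numbered libraries were not paired in the main fit. Correlations of their deviations from group means ran from -0.095 to 0.18, with 1 of 18 over 0.1. Differently numbered libraries were not compared in this way, so whether same-numbered ones share a batch cannot be told.

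Values that changed sign were all small after the change, though not all were small in the main fit. Ndufb2 in AAV-SIRT3 against intact turned to 0.0061 with TMM factors, 0.052 with the length and GC trend removed (with and without the block), 0.035 with the thalamic covariate, and ran from -0.019 to 0.012 without 1 library (0.0080, 0.0072 and 0.00090 without intact 1, 5 and 6, 0.0043 and 0.012 without AAV-SIRT3 4 and 5). Ndufs1 in AAV-SIRT3 against AAV-GFP turned to 0.0013 with the trend removed (also with the block), 0.017 with the ribosomal covariate, 0.0077 without AAV-SIRT3 6 (range without 1 library -0.027 to 0.0077) and 0.012 with both libraries left out, and in AAV-SIRT3 against intact to -0.0073 with the neuronal covariate. Ndufa9 in AAV-GFP against intact turned to -0.0033 with the trend removed (also with the block), -0.017 with the ribosomal covariate, -0.0066 without intact 3, -0.0018 without AAV-GFP 1, and -0.0016 without AAV-GFP 2 and with both left out. The ribosomal covariate also turned, in AAV-SIRT3 against AAV-GFP, Ndufa2 (-0.021), Ndufab1 (-0.017), Ndufb11 (-0.0043), Ndufb7 (-0.0074) and Ndufc2 (-0.0020). In AAV-GFP against intact it turned Ndufa11 (-0.00070), Ndufa8 (-0.014), Ndufb7 (-0.0031), Ndufc1 (-0.034), Ndufv1 (-0.0022) and Ndufv3 (-0.0061), and in AAV-SIRT3 against intact Ndufa2 (-0.011), Ndufab1 (-0.0079) and Ndufb7 (-0.010).

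Coefficients of variation of these genes had medians of 4.62% (intact), 7.81% (AAV-GFP) and 7.01% (AAV-SIRT3). The lowest were 1.71%, 2.31% and 2.95%, and the part of counting noise in this spread was not tested.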

Other observations

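Ndufa4l2, a relative of Ndufa4 that is known to be induced by low oxygen, had at most 81.0 normalised reads in any AAV-SIRT3 library, far under Ndufa4 itself. The rows of complex I copies and pseudogenes were nearly empty, with at most 48.6 normalised reads for Ndufs5-ps, 22.1 for Ndufa12-ps and 11.8 for Ndufab1-ps in AAV-SIRT3 libraries.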
